A study of Homo sapiens with 6 samples.

Results

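The genes described here are 4 keratins of simple epithelia (KRT7, KRT8, KRT18 and KRT19) and 6 genes whose proteins belong to the desmosome or are related to it (DSP, JUP, PKP2, PKP4, DSG2 and DSC2). They are 10 of 58302 genes in the count table, each found on 1 row by its symbol. They were chosen by symbol, with earlier log2 fold changes and calls of the same comparison of MCM7 siRNA with control siRNA already known, so the differences between groups are given as a description and nothing is supported with them. RNA was sequenced in 6 samples of hTert 1BR3 cells, forearm skin fibroblasts immortalised with telomerase, all of them from this 1 line. In 3 samples the cells had received non-targeting siRNAs and in the other 3 a pool of 4 siRNAs against MCM7, a subunit of the replicative DNA helicase. By the study's methods, all samples were then serum-starved, which arrests fibroblasts and lets them form a primary cilium, so the control cells were starved as well. The paper states that the cells were cycling when transfected, so the siRNAs were given before arrest. The question put by this comparison is what MCM7 siRNA changes in the transcripts of cells that were afterwards starved to form cilia. Effects that began before arrest and effects in arrested cells cannot be told apart.

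Keratins are intermediate filament proteins that assemble only as pairs of a type I and a type II chain. KRT8 and KRT7 are type II and KRT18 and KRT19 type I, and KRT8 with KRT18 is the first pair made by an embryo and the basic pair of simple epithelia. At desmosomes, filaments are tied to the membrane by the plakin desmoplakin (DSP), which binds the armadillo proteins plakoglobin (JUP) and plakophilins. These bind in turn the tails of the desmosomal cadherins, the desmogleins (DSG) and desmocollins (DSC), which hold neighbouring cells together. Fibroblasts use mainly vimentin as their intermediate filament and join each other through adherens junctions with N-cadherin (CDH2), to which PKP4, a p120-catenin relative also called p0071, can locate.

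The libraries held between 13721281 and 23969024 reads on genes, with MCM7 siRNA replicate 1 the smallest, and no library was a copy of another. Levels are given in CPM, read counts scaled to a common library total with TMM factors, or in RPKM as deposited. The latter scales counts by the reads on genes in a library, without TMM factors, and divides them by gene length. MCM7 lay at 27.3, 29.6 and 31.3 CPM in the control libraries and at 3.51, 3.33 and 3.18 CPM in the MCM7 siRNA libraries, which is 11.3% of the control level. Of 14667 genes with enough reads for a quasi-likelihood test in edgeR, 1881 (12.8%) had an adjusted p under 0.05, of which 906 (6.18%) were higher and 975 (6.65%) lower after MCM7 siRNA. The labelled cell type matched its markers, since all 12 fibroblast genes looked at were tested and summed to 71820 to 77880 CPM in control and 76020 to 79000 CPM in MCM7 siRNA libraries, a sum made up mostly of collagen reads. Of these 12, 8 (66.7%) were called, 5 higher (COL3A1, a fibrillar collagen, by 0.36 on the log2 scale) and 3 lower (FAP and S100A4, -0.35 each, and VIM).

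Of the 10 genes, 9 had at least 1 read, 7 passed the filter on low counts and 4 of these 7 (57.1%) had an adjusted p under 0.05, against the 12.8% of all tested genes and 8 of 12 in the list of fibroblast markers. Lower after MCM7 siRNA were KRT19, DSP and JUP, 3 of 7 beside 6.65% of tested genes, and higher was PKP4, 1 of 7 beside 6.18%. In 5 of the 7 (these 4 and KRT7) the CPM of the groups did not overlap, which held for 29.6% of tested genes. The median log2 fold change of the 7 was -0.12, and that of all tested genes was -0.0028. In bulk RNA, fewer cells that express a gene and less RNA of it per cell cannot be told apart. Of the genes left untested, PKP2 and DSG2 had a few reads and DSC2 had none.

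**Figure D1:**
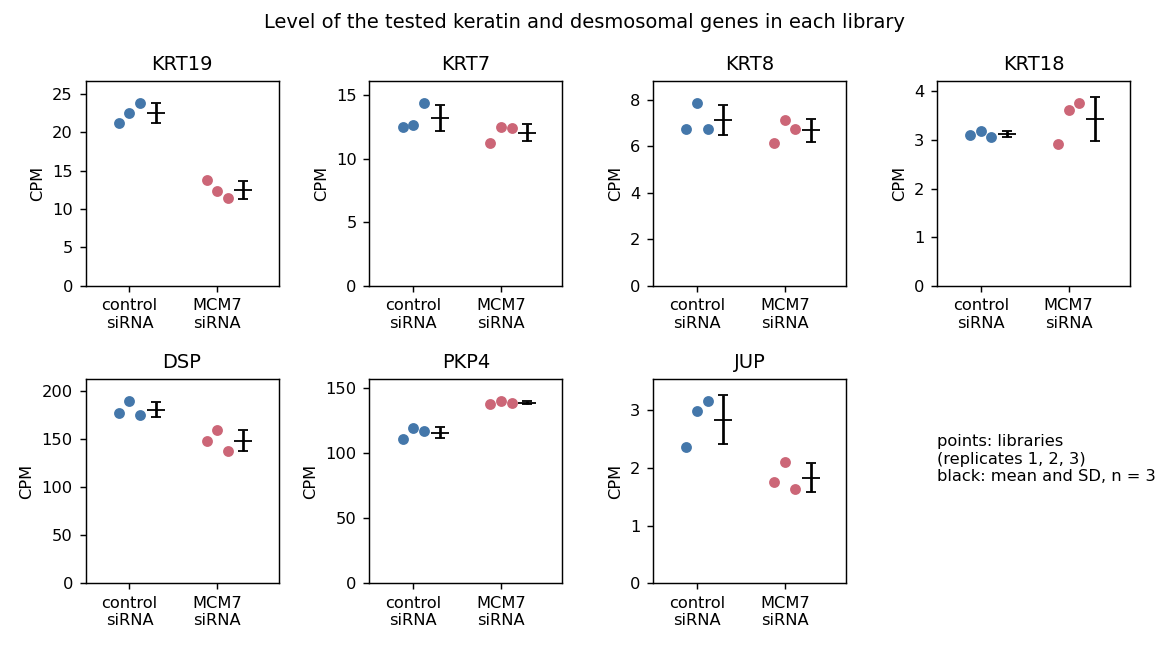
Level of the 7 tested genes in each library, in CPM on a linear axis from 0; coloured points are libraries (blue control siRNA, red MCM7 siRNA) and black marks are the mean and SD of 3 libraries. KRT19 lies between 21.3 and 23.8 CPM in control and between 11.5 and 13.8 CPM in MCM7 siRNA libraries, while PKP4 lies higher in every MCM7 siRNA library.

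Sequences before the start sites are shown for the desmosomal genes that differed between the groups and, for comparison, for DSG2, which was almost without reads. RefSeq promoter windows on GRCh38.p14, each from 250 bases before to 50 bases after an annotated start, were available for 6 of the 10 genes (9 windows, since JUP, PKP4 and DSC2 have more than 1 start); KRT7, KRT18, KRT19 and PKP2 were not matched. Capitals mark CACCTG on either strand (read as CACCTG or CAGGTG), the E-box form that the repressors SNAI1, SNAI2, ZEB1 and ZEB2 are known to bind.
DSP promoter, chr6:7541421-7541720, plus strand: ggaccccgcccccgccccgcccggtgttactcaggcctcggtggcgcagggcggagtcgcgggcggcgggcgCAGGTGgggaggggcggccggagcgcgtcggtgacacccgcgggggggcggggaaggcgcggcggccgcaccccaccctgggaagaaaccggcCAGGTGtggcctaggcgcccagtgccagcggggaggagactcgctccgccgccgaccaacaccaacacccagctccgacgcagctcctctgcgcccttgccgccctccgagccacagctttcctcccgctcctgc
JUP promoter, chr17:41785927-41786226, minus strand: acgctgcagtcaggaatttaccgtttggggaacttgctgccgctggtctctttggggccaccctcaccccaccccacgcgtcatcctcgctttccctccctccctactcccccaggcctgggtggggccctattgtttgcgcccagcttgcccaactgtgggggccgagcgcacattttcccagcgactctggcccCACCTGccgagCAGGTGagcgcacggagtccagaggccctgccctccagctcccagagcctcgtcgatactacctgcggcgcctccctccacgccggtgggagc
PKP4 promoter, chr2:158456702-158457001, plus strand: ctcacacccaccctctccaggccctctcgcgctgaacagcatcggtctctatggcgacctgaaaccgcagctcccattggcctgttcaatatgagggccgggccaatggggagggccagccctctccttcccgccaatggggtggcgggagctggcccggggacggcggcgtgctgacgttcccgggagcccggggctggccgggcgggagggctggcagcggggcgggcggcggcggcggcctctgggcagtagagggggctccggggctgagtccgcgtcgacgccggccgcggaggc
DSG2 promoter, chr18:31497927-31498226, plus strand: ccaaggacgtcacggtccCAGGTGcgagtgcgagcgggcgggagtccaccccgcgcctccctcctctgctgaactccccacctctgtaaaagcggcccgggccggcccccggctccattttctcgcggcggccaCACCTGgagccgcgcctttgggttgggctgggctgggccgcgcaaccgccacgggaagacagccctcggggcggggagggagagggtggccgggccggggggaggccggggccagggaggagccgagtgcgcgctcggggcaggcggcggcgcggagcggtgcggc

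The DSP, JUP and DSG2 windows each held 2 such E-boxes, and the PKP4 window held none. In DSP they begin 178 and 85 bases before the start, in DSG2 232 and 116 bases before it, and in JUP 54 and 43 bases before it, so that in JUP the pair is separated by a short spacer only. The other JUP and PKP4 windows held none. That other JUP window (41786662 to 41786961) covers the upstream end of the gene, and the JUP window printed lies downstream of it. The KRT8 window (52926420 to 52926719) also held none, but it lies inside the gene and not at its upstream end. Of the DSC2 windows, 1 held 1. In all, 4 of the 9 windows held the motif, against 20.6% of 35116 RefSeq promoter windows of the same length. GGGCGG, the core of the GC box, searched on both strands, stood in 7 of the 9 windows and in 45.0% of all windows; the DSP window alone held 8 copies, with a GC content of 77.0%, and the KRT8 window (50.7% GC) held none. The AP-1 motif, searched as TGACTCA or TGAGTCA only (4.95% of all windows), and TATAAA (11.5%) were in none of the 9. A match is a description of letters, and binding was not measured.

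KRT19, an acidic keratin and the smallest of the family, had the largest change of the 7 tested genes. It was read 397, 451 and 505 times in the control libraries and 189, 251 and 274 times in the MCM7 siRNA libraries, which gives 21.3, 22.5 and 23.8 CPM and 13.8, 12.3 and 11.5 CPM. All MCM7 siRNA libraries lay below all control libraries. The mean was 22.5 ± 1.28 CPM in control and 12.5 ± 1.201 CPM after MCM7 siRNA (SD, n = 3), a log2 fold change of -0.87 ± 0.08 (SE; 95% interval -1.04 to -0.69; edgeR adjusted p = 1.611e-08), or 54.9% of the control level. Only 58 of the tested genes had a lower log2 fold change. The gene (ENSG00000171345) is on chromosome 17 (41523617 to 41528308, minus strand, GRCh38), and its canonical transcript has 6 exons. It has 5 annotated pseudogenes, which together took 31 reads, 1.48% of the summed reads of gene and pseudogenes, and adding these reads gave a log2 fold change of -0.86.

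KRT7, the type II keratin of ducts and many glandular epithelia, was close to the same level in both groups. Its level was 12.5, 12.7 and 14.4 CPM in control and 11.3, 12.5 and 12.4 CPM in MCM7 siRNA libraries. The groups met almost at a point: the lowest control library exceeded the highest MCM7 siRNA library in the third decimal only in CPM, and in RPKM the groups overlapped. The log2 fold change of -0.12 ± 0.09 had a 95% interval of -0.31 to 0.06 (edgeR adjusted p = 0.427), which leaves out a fall as large as that of KRT19.

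KRT8, the type II partner of KRT18, had 6.76, 7.88 and 6.75 CPM in control and 6.14, 7.15 and 6.77 CPM in MCM7 siRNA libraries. The groups overlapped, and the log2 fold change was -0.08 ± 0.11 (95% interval -0.31 to 0.15; edgeR adjusted p = 0.715). KRT18, the type I partner, had 3.11, 3.19 and 3.07 CPM in control and 2.93, 3.63 and 3.76 CPM in MCM7 siRNA libraries. Here too the groups overlapped, since MCM7 siRNA replicate 1 was the lowest of all 6 libraries and the other two of its group were the highest, with a log2 fold change of 0.17 ± 0.16 (95% interval -0.16 to 0.49; edgeR adjusted p = 0.554). For both genes the interval leaves out the log2 fold change of KRT19 but not small changes in either direction. Both genes lie head to head on chromosome 12 and overlap at their ends on opposite strands (KRT8, 52897187 to 52949954, minus; KRT18, 52948871 to 52952906, plus), and the counting was stranded.

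KRT8 and KRT18 have many processed pseudogenes, with which unique mapping can lose or misplace reads. Among 50 annotated KRT8 pseudogenes 21 had a read, with 239 reads in all or 22.59% of the sum with KRT8, and among 67 KRT18 pseudogenes 31 had a read, with 149 reads or 27.59% of the sum. The levels of these keratins are therefore uncertain. With pseudogene reads added, the log2 fold change was -0.07 for KRT8 and 0.20 for KRT18, again without a call.

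The keratin complement of the cells can be set out by type. A read was found on 24 of the 54 keratin genes listed, and the 4 named here made up 62.1 ± 1.504% of the summed keratin RPKM in control and 57.9 ± 3.09% after MCM7 siRNA. Summed type I keratins had 17.8, 19.4 and 19.1 RPKM in control and 12.9, 12.9 and 13.8 RPKM in MCM7 siRNA libraries, while summed type II keratins had 4.96, 4.96 and 5.21 RPKM and 4.53, 4.96 and 4.78 RPKM. The type I sums of the groups were far apart, and the type II sums overlapped. The ratio of type I to type II thus was 3.73 ± 0.17 in control and 2.78 ± 0.15 after MCM7 siRNA (SD, n = 3), with no overlap. KRT19 made up 51.1 ± 1.75% of type I RPKM in control and 40.9 ± 5.02% after MCM7 siRNA, and KRT7 made up 63.6 ± 2.89% and 62.2 ± 1.47% of type II. The ratio of KRT19 to KRT8 RPKM was 9.36 ± 1.00 in control and 5.56 ± 0.93 after MCM7 siRNA, and that of KRT8 to KRT18 was 1.07 ± 0.08 and 0.92 ± 0.07.

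**Figure D2:**
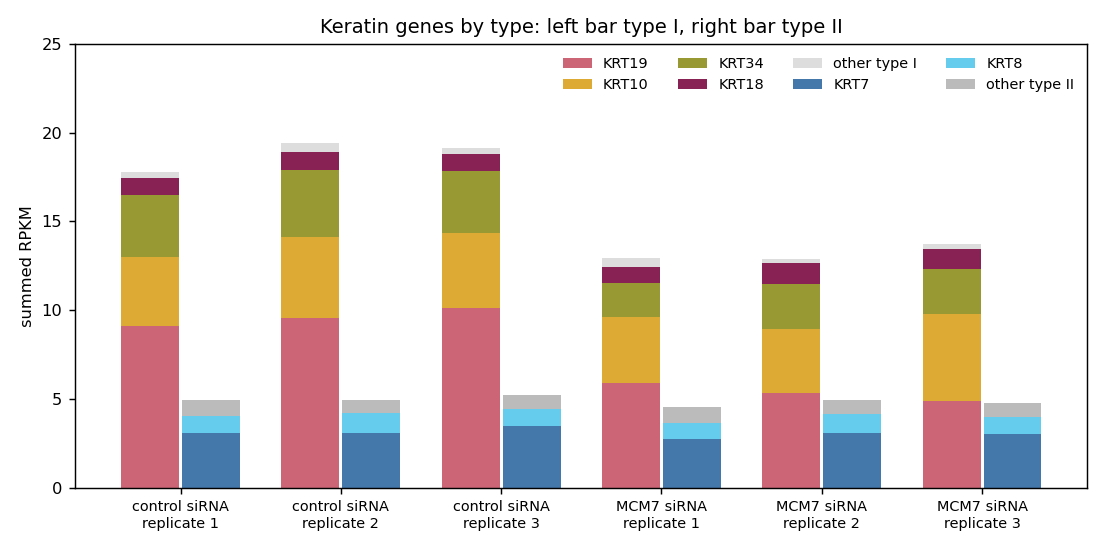
Summed RPKM of keratin genes in each library on a linear axis from 0, type I in the left and type II in the right bar of each pair, with the main genes as coloured segments. Type I sums lie between 17.8 and 19.4 RPKM in control and between 12.9 and 13.8 RPKM in MCM7 siRNA libraries, and type II sums between 4.53 and 5.21 RPKM in all 6.

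Levels between genes depend on the length used. The deposited RPKM implied a length of 6881 nt for KRT8, against 1784 nt for its canonical transcript, and 9525 nt against 4603 nt for PKP4, but 10093 nt against 9697 nt for DSP. In control RPKM the order was DSP (17.8 ± 0.83), PKP4 (12.1 ± 0.43), KRT19 (9.60 ± 0.50), KRT7 (3.21 ± 0.24), KRT8 (1.03 ± 0.09), KRT18 (0.966 ± 0.021) and JUP (0.571 ± 0.083), where only KRT8 and KRT18 as neighbours overlapped. Per kilobase of canonical transcript, PKP4 (25.2 ± 0.95 CPM per kb) stood above DSP (18.6 ± 0.84) and KRT8 (3.996 ± 0.363) stood above KRT18 (2.21 ± 0.04). By this length the type I to type II ratio was 2.07 ± 0.04 in control and 1.52 ± 0.10 after MCM7 siRNA, so its size but not its direction rested on the length chosen. The ratio of KRT19 to KRT8 became 4.08 ± 0.44 and 2.42 ± 0.40. That of KRT8 to KRT18 became 1.81 ± 0.13 and 1.55 ± 0.12, above 1 in both groups.

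DSP, the plakin that links keratin or vimentin filaments to the junction, was the most read of the 10 genes. It lay at 178, 190 and 175 CPM in the control libraries and at 148, 160 and 138 CPM in the MCM7 siRNA libraries. All MCM7 siRNA libraries were lower, and the means were 181 ± 8.13 and 149 ± 10.8 CPM (SD, n = 3). The log2 fold change was -0.28 ± 0.05 (95% interval -0.39 to -0.17; edgeR adjusted p = 0.000459), a level of 82.1% of control. In control cells 86.6% of tested genes had a lower RPKM than DSP. The gene (ENSG00000096696) is on chromosome 6 (7541338 to 7586714, plus strand), and its canonical transcript has 24 exons.

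PKP4 moved the other way. Its level was 111, 120 and 117 CPM in control and 138, 140 and 138 CPM in MCM7 siRNA libraries. The groups did not overlap, and the MCM7 siRNA libraries were close together, with means of 116 ± 4.36 and 139 ± 1.30 CPM. The log2 fold change was 0.26 ± 0.05 (95% interval 0.16 to 0.36; edgeR adjusted p = 0.000431), a level of 119.8% of control. In RPKM the ratio of PKP4 to DSP within a library was 0.664, 0.668 and 0.708 in control and 0.985, 0.933 and 1.06 in MCM7 siRNA libraries, without overlap. By canonical length the same ratio was 1.35 ± 0.05 in control and 1.98 ± 0.13 after MCM7 siRNA, so which of the genes stood higher rested on the length, while the rise of the ratio did not. PKP4 (ENSG00000144283) lies on chromosome 2 (158456952 to 158682879, plus strand) and its canonical transcript has 22 exons.

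JUP encodes plakoglobin, the armadillo protein shared by desmosomes and adherens junctions and the close relative of beta-catenin (CTNNB1). It was read 44, 60 and 67 times in control and 24, 43 and 39 times in MCM7 siRNA libraries, which is 2.36, 2.99 and 3.16 CPM and 1.76, 2.11 and 1.63 CPM. All MCM7 siRNA libraries were lower than all controls, but by a small margin and at low depth. The log2 fold change was -0.64 ± 0.19 (95% interval -1.03 to -0.25; edgeR adjusted p = 0.0235). This call was lost with DESeq2 (adjusted p = 0.106), after thinning all libraries to the depth of the smallest (0.121), and without MCM7 siRNA replicate 1 (0.063), MCM7 siRNA replicate 3 (0.0889), control replicate 2 (0.0894) or control replicate 3 (0.134), and the direction was the same in each. The RPKM of JUP was 0.041 ± 0.007 of that of CTNNB1 in control and 0.024 ± 0.002 after MCM7 siRNA. CTNNB1 itself had a log2 fold change of 0.13 ± 0.05 that did not pass (edgeR adjusted p = 0.111). JUP lies 226.3 kb from KRT19 on chromosome 17 (41754604 to 41786931, minus strand), and its canonical transcript has 14 exons.

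The cadherins and PKP2, the plakophilin of simple epithelia and heart, were nearly without reads. PKP2 had 0, 3 and 5 reads in control and 2, 0 and 4 reads in MCM7 siRNA libraries, 8 against 6 in all. Relative to library totals the ratio of MCM7 siRNA to control was 0.781, with a 95% interval of 0.223 to 2.57 that covers counting error only, so a difference was not detectable at this depth. DSG2, the desmoglein of all desmosome-bearing tissues, had 2, 4 and 3 reads in control and 0, 1 and 0 reads in MCM7 siRNA libraries. The ratio of 0.116 (0.00264 to 0.835) rests on 9 reads against 1, and its interval too covers counting error only. DSC2, the corresponding desmocollin, had 0 reads in every library, where a count of 0 allows up to 3 reads, or 0.125 to 0.219 CPM before TMM scaling.

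All 7 desmosomal cadherin genes (DSG1 to DSG4 and DSC1 to DSC3) together had 9 reads in the control and 2 in the MCM7 siRNA libraries, while DSP alone had 10829 and 8583. The desmosomal plaque gene DSP was thus transcribed in cells with hardly any cadherin transcript of the desmosome. N-cadherin, by contrast, stood at 58.5 ± 0.48 RPKM in control and 69.5 ± 2.76 RPKM after MCM7 siRNA.

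**Figure D3:**
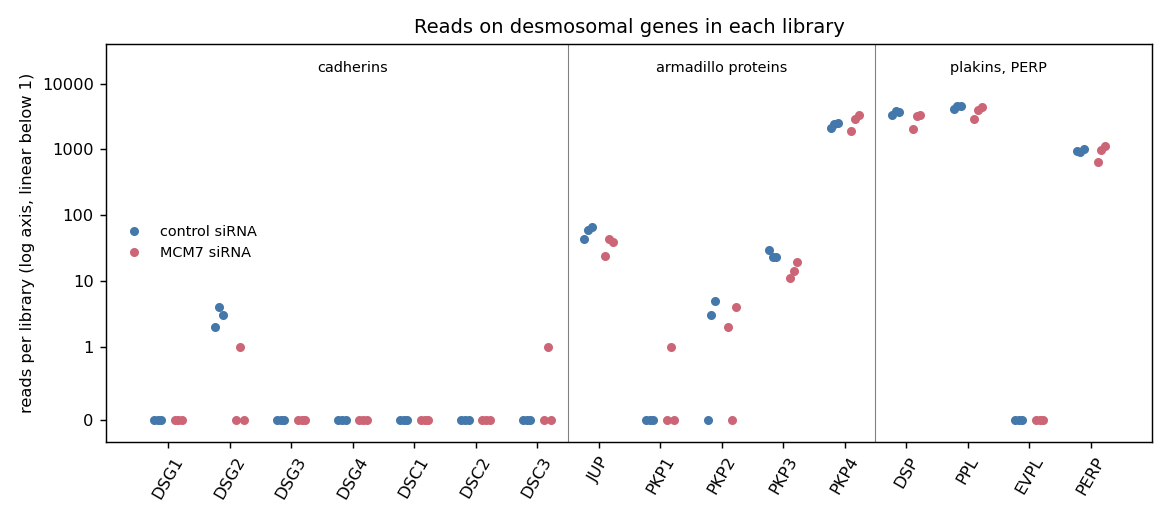
Reads per library on 16 desmosomal genes, on a log axis that is linear below 1; blue points are control siRNA and red points MCM7 siRNA libraries, grouped as cadherins, armadillo proteins, and plakins with PERP. DSC2 is at 0 in every library and DSG2 has at most 4 reads, whereas DSP and PKP4 have from 1886 to 3814.

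Neighbouring gene groups, listed with earlier results known, were read from the same fit. Over all tested genes 12.8% were called, 6.18% higher and 6.65% lower, which stands beside each count below. Among 31 other keratins 15 had no read and 4 were tested, of which KRT34, a hair keratin of type I, fell (6.17, 6.63 and 6.19 CPM in control and 3.36, 4.41 and 4.39 CPM in MCM7 siRNA libraries; log2 fold change -0.61 ± 0.13; edgeR adjusted p = 0.00159). KRT80 (0.30), KRT4 (-0.15) and KRT10 (-0.04) did not pass. The epidermal basal keratin KRT5 had no read and its partner KRT14 had 2 reads in all. Among 11 other desmosomal and cornified envelope genes 6 had no read and 3 were tested, with PPL, the plakin periplakin, lower at a log2 fold change of -0.18 (edgeR adjusted p = 0.0192). The call of PPL was lost without MCM7 siRNA replicate 3 (0.0658), control replicate 1 (0.0575) or control replicate 2 (0.108). PKP3, another plakophilin, had a log2 fold change of -0.72 ± 0.28 at about 1 CPM (edgeR adjusted p = 0.0832), and the tetraspan protein gene PERP one of -0.02.

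Other filament genes that passed the test were lower after MCM7 siRNA. Of 14 genes for other intermediate filaments and lamins 10 were tested, with 3 called, each of them lower, and a median log2 fold change of -0.22, beside -0.0028 for all tested genes. VIM, the vimentin gene, stood at 3806, 3637 and 3922 CPM in control and 3288, 3267 and 2891 CPM in MCM7 siRNA libraries (log2 fold change -0.27 ± 0.05; edgeR adjusted p = 0.000845), with no overlap. The nuclear lamina genes LMNA (-0.24) and LMNB2 (-0.21) fell as well, and the neurofilament gene NEFH (-0.86 ± 0.40, at under 1 CPM) did not pass. Of 11 genes for other plakins and the hemidesmosome 10 were tested, with 1 called higher and 1 lower (20.0%). MACF1, a plakin that links actin and microtubules, was higher (0.34). CD151, a tetraspanin partner of laminin-binding integrins, was lower (-0.20), and the keratin-linking PLEC was not past the threshold (-0.14, edgeR adjusted p = 0.0819).

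In the adherens junction list 11 of 15 genes were tested, 2 were called, both higher, and the median log2 fold change was 0.13. CDH2 lay at 291, 292 and 290 CPM in control and at 332, 338 and 359 CPM in MCM7 siRNA libraries, clearly apart (log2 fold change 0.24 ± 0.05; edgeR adjusted p = 0.000773). NECTIN3, a nectin of the same junction, rose by 0.19 on the log2 scale, a call lost without any of 5 libraries (control replicate 1, 2 or 3, MCM7 siRNA replicate 1 or 2; adjusted p of 0.056 to 0.146). VCL and CTNND1, which encode vinculin and p120-catenin, both had 0.13 and did not pass. VCL passed with DESeq2, with library size only, with limma and without MCM7 siRNA replicate 3. CTNND1 passed with library size only and with limma. The count in this list was 4 with library size only, with limma or without MCM7 siRNA replicate 3, and 3 with DESeq2. It was 1 without any 1 of the other 5 libraries or at an adjusted p under 0.01. Without MCM7 siRNA replicate 3 CTNND1 did not pass, so the 4 called there include a gene not named here. In the tight and gap junction list 12 of 19 were tested; the claudin gene CLDN12 (-0.98 ± 0.10) fell, from a mean of 12.2 to 6.18 CPM, with every MCM7 siRNA library below every control. JAM2 (-0.60), a junctional adhesion molecule, was lower and GJA1 (0.19), connexin 43, higher. The JAM2 call was lost with DESeq2, and also without control replicate 1 or 2 or MCM7 siRNA replicate 1 or 3. That of GJA1 was lost without control replicate 3 or MCM7 siRNA replicate 2.

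Genes whose products bind keratins or act in keratin turnover were tested for 18 of 19, with 1 higher and 5 lower. That is 33.3% called, beside 12.8% of all tested genes. STUB1, a chaperone-linked ubiquitin ligase, fell by 0.33 on the log2 scale (edgeR adjusted p = 0.000683). HSPB1 (-0.28), a small heat shock protein, YWHAZ (-0.16), a phosphoprotein-binding adaptor, and the kinase gene PRKCA (0.20) passed too, but HSPB1 was lost without control replicate 1 or 2 or MCM7 siRNA replicate 1 or 2 and with DESeq2 (adjusted p = 0.27), YWHAZ without control replicate 1 or 3 or MCM7 siRNA replicate 1 or 3, and PRKCA without control replicate 1 or MCM7 siRNA replicate 1. Leaving out a library moved the number called in this list between 1 and 6.

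**Figure D4:**
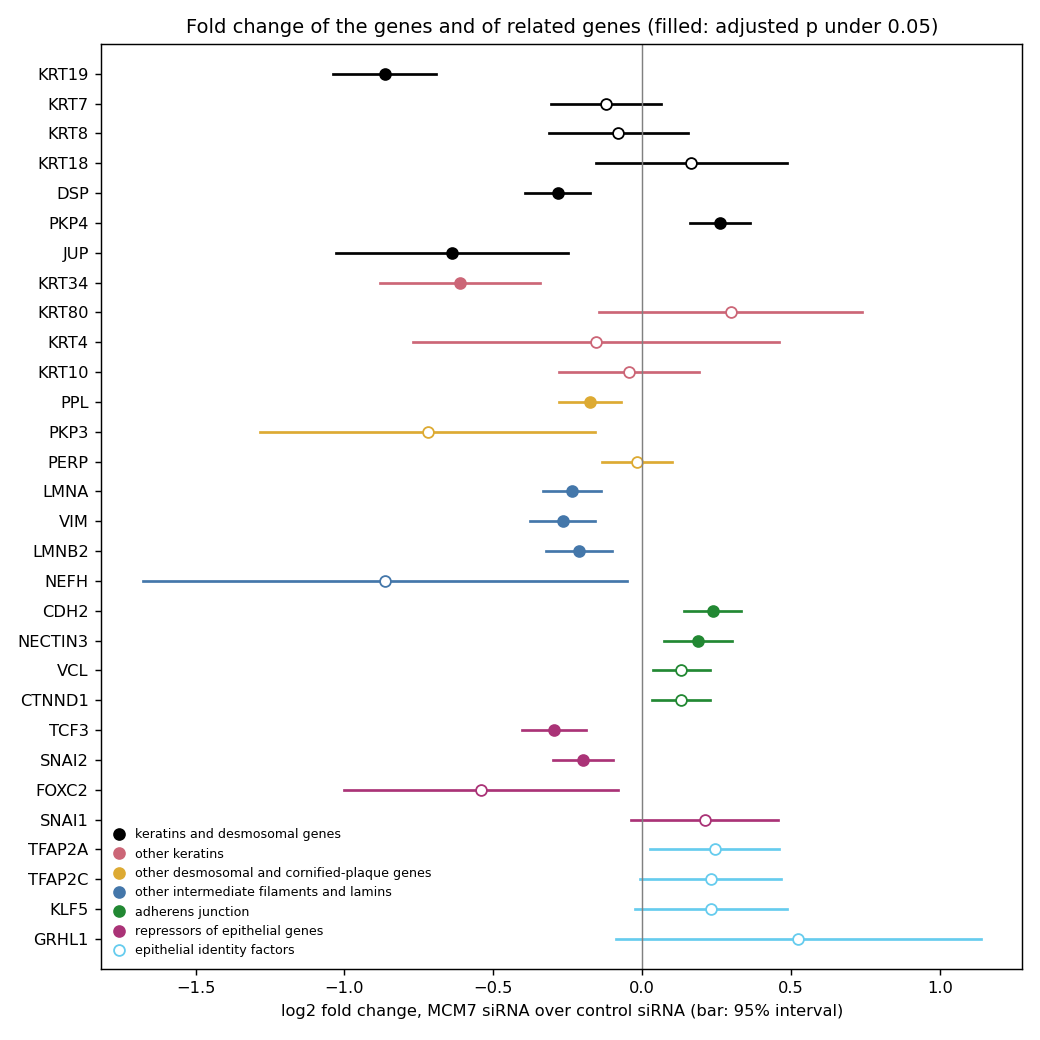
Log2 fold change of MCM7 siRNA over control siRNA with its 95% interval for the 7 tested genes and for genes of 6 related lists; filled points have an edgeR adjusted p under 0.05. KRT19 (-0.87), JUP (-0.64) and DSP (-0.28) lie to the left of 0 and PKP4 (0.26) to the right.

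Factors that set epithelial identity and factors that repress it were looked at for context. Of 18 epithelial factors 6 had no read and 5 were tested. In edgeR 0 passed, and 1, TFAP2A (0.24 ± 0.11), had an unadjusted p under 0.05. In DESeq2 0 passed too, but GRHL1 was given no adjusted p there and so could not pass. TFAP2C and KLF5 had log2 fold changes of 0.23 each and GRHL1 of 0.52 ± 0.30, all with adjusted p above the threshold. Of the 10 repressors all were tested and 2 (20.0%) were called, both lower, beside 12.8% of all tested genes called and 6.65% lower. TCF3, which encodes the E proteins E12 and E47, stood at 85.5, 84.5 and 87.7 CPM in control and at 71.1, 67.1 and 71.7 CPM in MCM7 siRNA libraries (log2 fold change -0.30 ± 0.05; edgeR adjusted p = 0.000211), and SNAI2, known as Slug, at 106, 106 and 109 CPM and 93.8, 94.4 and 91.6 CPM (-0.20 ± 0.05; 0.00625). In both genes the groups were apart. FOXC2 (-0.54 ± 0.23) and SNAI1 (0.21 ± 0.12) did not pass.

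Markers of other cell types were read as well. Of 12 keratinocyte markers 4 (KRT5, KRT1, DSG3 and SFN) were at 0, and the list summed to 9.65 to 11.96 CPM in control and 8.62 to 12.2 CPM in MCM7 siRNA libraries, most of it KRT10. EPCAM had 2 reads and CDH1, E-cadherin, 5 reads over all libraries. Of 8 mesothelial markers, a cell type that makes KRT7, KRT8, KRT18 and KRT19, 4 (MSLN, WT1, ITLN1 and LRRN4) were at 0, and the sum was 21.3 to 24.3 CPM in control and 23.9 to 24.8 CPM after MCM7 siRNA, most of it BNC1. Smooth muscle and myofibroblast markers summed to 788 to 866 CPM in control and 904 to 945 CPM after MCM7 siRNA, without overlap. The list moved both ways, with ACTA2 (0.51) and MYLK (0.27) higher, SMTN (-0.34) lower, TAGLN, CNN1, MYH11 and DES not called, and a median log2 fold change of -0.06. Their part in the results above was not tested. Melanocyte, endothelial and leukocyte lists summed to at most 4.17, 21.9 and 1.75 CPM. EGFL7, 1 of 2 endothelial markers tested, was lower (-0.41; edgeR adjusted p = 0.0433), and the other, TEK, was not called.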

How the data were processed

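Stranded, poly(A)-selected libraries were sequenced single-end, according to the study. Base calling with bcl2fastq 1.8.4, mapping to GRCh38 with TopHat2 2.1.0 and counting with featureCounts 1.5.0 are named in the submitters' processing notes. Only unique hits on annotated loci were kept, which costs reads in genes with close copies. The authors deposited raw counts per gene, and RPM and RPKM made from them. The deposited RPM was the count scaled by the reads assigned to genes in a library, and the deposited RPKM was RPM divided by 1 length per gene, the source of which is not given in the sources used here.

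Counts were tested with edgeR 4.0.16 (quasi-likelihood, two-sided, TMM, filterByExpr, Benjamini-Hochberg over 14667 genes, threshold 0.05) in R 4.3.3. DESeq2 1.42.0 and limma 3.58.1 served as alternatives, the latter on log2(RPM + 0.5), beside scaling, filters, thinning, a replicate block and leaving out each library. The test was checked on simulated data. It called 32.7% of genes changed 1.2-fold, 71.4% of those changed 1.5-fold and 93.9% of those changed 2-fold. Of 14298 unchanged genes it called 7. A gene that did not pass may therefore still differ by a small amount. The genes, lists and tests were chosen with earlier results of these data known. The genes named were the 10, MCM7 and, from each list, up to 4 with the smallest p; any other gene was chosen after its values were seen. The labels do not say whether replicates were separate cultures, so that the p-values reflect only the spread of these samples, possibly technical. Coordinates are those of GENCODE 44, and figures and ratios were made in Python 3.11.15 with matplotlib 3.10.9. Intervals of read ratios and limits for a count of 0 (3 reads) cover counting error only.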

Additional observations from a re-analysis of the deposited data

How the results depend on the processing

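KRT19, DSP and PKP4 kept their direction and their call in all 16 alternatives run, and without each library in turn their largest edgeR adjusted p was 3.49e-06 for KRT19, 0.0113 for DSP and 0.00836 for PKP4. JUP kept its direction but not its call, as given above, and it also missed a threshold of 0.01. The number of the 10 genes called was 3 to 4 without each library in turn. Over all genes, 1881 calls became 1030 at an adjusted p under 0.01 and 1151 to 2265 without each library in turn, the lowest without control replicate 3. DESeq2 called 1325 and gave no adjusted p for 2275 genes, and the other settings called between 1318 and 1961. No shared deviation of same-numbered libraries was seen, since their deviations from the group means correlated at -0.00715, -0.0193 and -0.0128. These values cannot tell whether same-numbered samples were prepared together. With a replicate block 1961 genes and 4 of the 10 were called.

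Among genes that were not called, the sign of KRT10 turned without 1 library (range -0.23 to 0.06; 0.0015 without MCM7 siRNA replicate 1, 0.064 without MCM7 siRNA replicate 2 and 0.0096 without control replicate 2), that of KRT4 turned after thinning (0.033) and without control replicate 1 (0.042; range -0.38 to 0.04), and that of PERP without control replicate 1 (0.0082; range -0.0515 to 0.0082). The cause was not tested. Over 43 named genes, 618 of 677 alternative values kept direction and side of the threshold, 42 lost the call, 11 gained it and 6 turned. Depth limits PKP2 and DSG2, whose ratios rest on at most 14 reads, and DSC2, which has no ratio.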

Other observations

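The 500 kb on either side of KRT19 on chromosome 17 were looked at after the values were seen. This window holds part of the type I keratin cluster and leaves out KRT10, which lies 701.0 kb from KRT19. Of 14 tested genes there other than KRT19, 3 were called, each lower: KRT34 (-0.61), 141.3 kb from KRT19, JUP (-0.64) and FKBP10 (-0.32), which encodes a collagen-folding peptidyl-prolyl isomerase of the endoplasmic reticulum. Over all tested genes 12.8% were called and 6.65% were called lower. The JUP call was lost in 8 of the 16 alternatives. The remaining neighbours did not pass, and the median log2 fold change of the 14 was -0.07. Within 500 kb of DSP, RREB1 (-0.24) was the only called gene of 10 tested; near PKP4, TANC1 rose (0.33), 1 of 3 tested; near KRT8 and KRT18, on the type II cluster of chromosome 12, IGFBP6 fell (-0.54) and no other tested neighbour passed; near KRT7, on the same chromosome, SCN8A rose (0.21), 1 of 9 tested. Whether neighbours share control was not tested.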
